A study of Mus musculus with 33 samples.

Results

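The Schlafen genes form a family that sits in a single cluster on mouse chromosome 11, and 7 of them were followed here across the mouse thymus: Slfn1, Slfn2, Slfn3, Slfn4, Slfn5, Slfn8 and Slfn9. They were chosen by gene symbol. The table holds 12 probe sets of these genes among 45037, of which 11 belong to 1 member and 1 is shared by Slfn3 and Slfn4. Each of the 7 genes had a probe set among the 13463 genes tested. The family was singled out because Slfn1 stood apart between sorted medullary and cortical thymocytes, so comparisons that use the sorted cells are described here without a test.

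The family takes its name from the German word for sleep, after the finding that forced expression of Slfn1 slows the growth of T cells. Its mouse members come in a short form (Slfn1 and Slfn2), an intermediate form (Slfn3 and Slfn4) and a long form (Slfn5, Slfn8 and Slfn9) that carries a helicase-like part at its carboxy end. Slfn2 is needed for resting T cells to stay quiescent and to survive activation, and it binds transfer RNA and shields it from cleavage by the ribonuclease angiogenin. Several members are induced by type I interferon. In the thymus, immature thymocytes divide and rearrange their receptor genes in the cortex, and cells that pass selection move into the medulla, where they mature to naive T cells.

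RNA came from male C57bl6/J mice 4 to 6 weeks old, which carried no transgene or treatment according to the labels, and each sample was hybridised to 1 Affymetrix array. The 33 samples were 7 of microdissected whole medulla, 3 of perimedullary cortex, 3 of subcapsular cortex, 3 of central cortex and 7 of whole cortex, with 5 of sorted medullary thymocytes and 5 of sorted cortical thymocytes. Medullary thymocytes had been sorted as CD3hi CD45+ cells, and cortical thymocytes as CD3-/lo CD45+ cells positive for CD90 or CD117, so each sort took cells by maturity rather than by place. The titles call the replicates biological, but the labels tie no dissected region to an animal. If regions shared an animal, the fit left that pairing out, and its p-values could be off in either direction.

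The labels were checked against defining genes. Aire, the regulator of self-antigen expression in medullary epithelium, averaged 2333 ± 231 in whole medulla, against 25.3 ± 24.2 in whole cortex (signal, SD, n = 7 each). Psmb11, the cortical thymoproteasome subunit, averaged 120 ± 23.1 in whole medulla, against 2763 ± 498 in whole cortex, and lay below 20 on average in both sorted populations. Rag1, needed for receptor gene rearrangement, averaged 920 ± 531 in medullary thymocytes, against 26669 ± 1491 in cortical thymocytes (n = 5 each). The median signal of an array ran from 71.9 to 163. On 13 arrays (5 of whole medulla, 5 of whole cortex and 3 of medullary thymocytes) the brightest 0.1% of probe sets exceeded 42000. These are called wide-tailed arrays below, and the labels give no batch that could be set against them. Of whole medulla and of whole cortex, only replicates 6 and 7 lack the wide tail. Values without the wide-tailed arrays therefore rest on few arrays.

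The promoters of Slfn5, Slfn8, Slfn9 and Slfn1 are shown first, chosen by a sequence match and, for Slfn1, by fold change. Of the members, 3 (Slfn5, Slfn8 and Slfn9) carried an interferon response element, here GAAA, any 2 bases and GAAA again, read on either strand, within the 250 bases before a RefSeq start of transcription (GRCm38.p6). The element was present in 2.98% of 32851 such windows over 27025 genes. Slfn1 is shown as the member with the highest fold change and without a match, and Slfn2, Slfn3 and Slfn4 had none either. Each sequence runs 5′ to 3′ on the strand of its gene and ends at the base before the start, and capitals mark the element.
Slfn5, chr11:82951852-82952101, plus strand: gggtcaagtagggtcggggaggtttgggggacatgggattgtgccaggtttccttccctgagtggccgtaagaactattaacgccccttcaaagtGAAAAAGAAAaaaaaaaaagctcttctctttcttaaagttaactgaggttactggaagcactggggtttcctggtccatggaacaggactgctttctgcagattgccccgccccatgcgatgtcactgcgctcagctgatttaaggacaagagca
Slfn9, chr11:82991831-82992080, minus strand: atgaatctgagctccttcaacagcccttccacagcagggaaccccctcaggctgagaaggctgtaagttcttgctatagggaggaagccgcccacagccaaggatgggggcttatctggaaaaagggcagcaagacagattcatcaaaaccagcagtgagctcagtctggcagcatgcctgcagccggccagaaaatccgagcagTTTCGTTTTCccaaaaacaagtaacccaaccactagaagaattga
Slfn8, chr11:83020811-83021060, minus strand: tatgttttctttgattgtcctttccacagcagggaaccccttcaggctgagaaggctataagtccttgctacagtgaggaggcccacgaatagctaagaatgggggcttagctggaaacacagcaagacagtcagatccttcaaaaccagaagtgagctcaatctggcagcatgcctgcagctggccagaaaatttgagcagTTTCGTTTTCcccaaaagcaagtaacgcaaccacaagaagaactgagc
Slfn1, chr11:83116570-83116819, plus strand: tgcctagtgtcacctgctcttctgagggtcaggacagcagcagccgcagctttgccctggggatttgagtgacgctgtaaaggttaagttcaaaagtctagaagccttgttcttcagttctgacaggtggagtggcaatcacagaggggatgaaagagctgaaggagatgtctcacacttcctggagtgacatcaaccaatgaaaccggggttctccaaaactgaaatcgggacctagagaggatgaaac

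The element stood 155 to 146 bases before the start in Slfn5, 45 to 36 bases before it in Slfn9 and 48 to 39 bases before this start of Slfn8. A second RefSeq window of Slfn8, not printed, covers the same copy 136 to 127 bases before its own start. The Slfn8 and Slfn9 stretches printed here were identical in 210 of 262 aligned columns (80.2%), and the element itself reads the same in both. The letters TTCNNNGAA, the core of a gamma-activated site, were in none of the members' windows and in 7.02% of all windows. The letters CCACCC, part of the sites bound by Kruppel-like factors, were in the window of Slfn3 alone and in 28.1% of all windows. Such matches describe the sequence only.

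Setting whole medulla against whole cortex asks how the compartment of mature thymocytes differs from that of immature ones. Of the 7 members, 5 rose in the medulla (Slfn1, Slfn2, Slfn4, Slfn5 and Slfn8), none fell, and Slfn3 and Slfn9 did not meet both criteria. A gene counted as changed at an adjusted p below 0.05 in limma and an absolute log2 fold change of at least 1. Within the arrays that lack the wide tail 4 of the 7 rose, without Slfn4. By the same criteria 18.5% of all 13463 genes were higher in the medulla and 5.38% were lower. The median log2 fold change was 1.52 over the members and 0.11 over all genes. Fold changes were fitted to log2(signal + 26.2), which shrinks differences between weak signals. In bulk tissue, fewer cells of a type and less RNA per cell cannot be told apart.

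**Figure D1:**
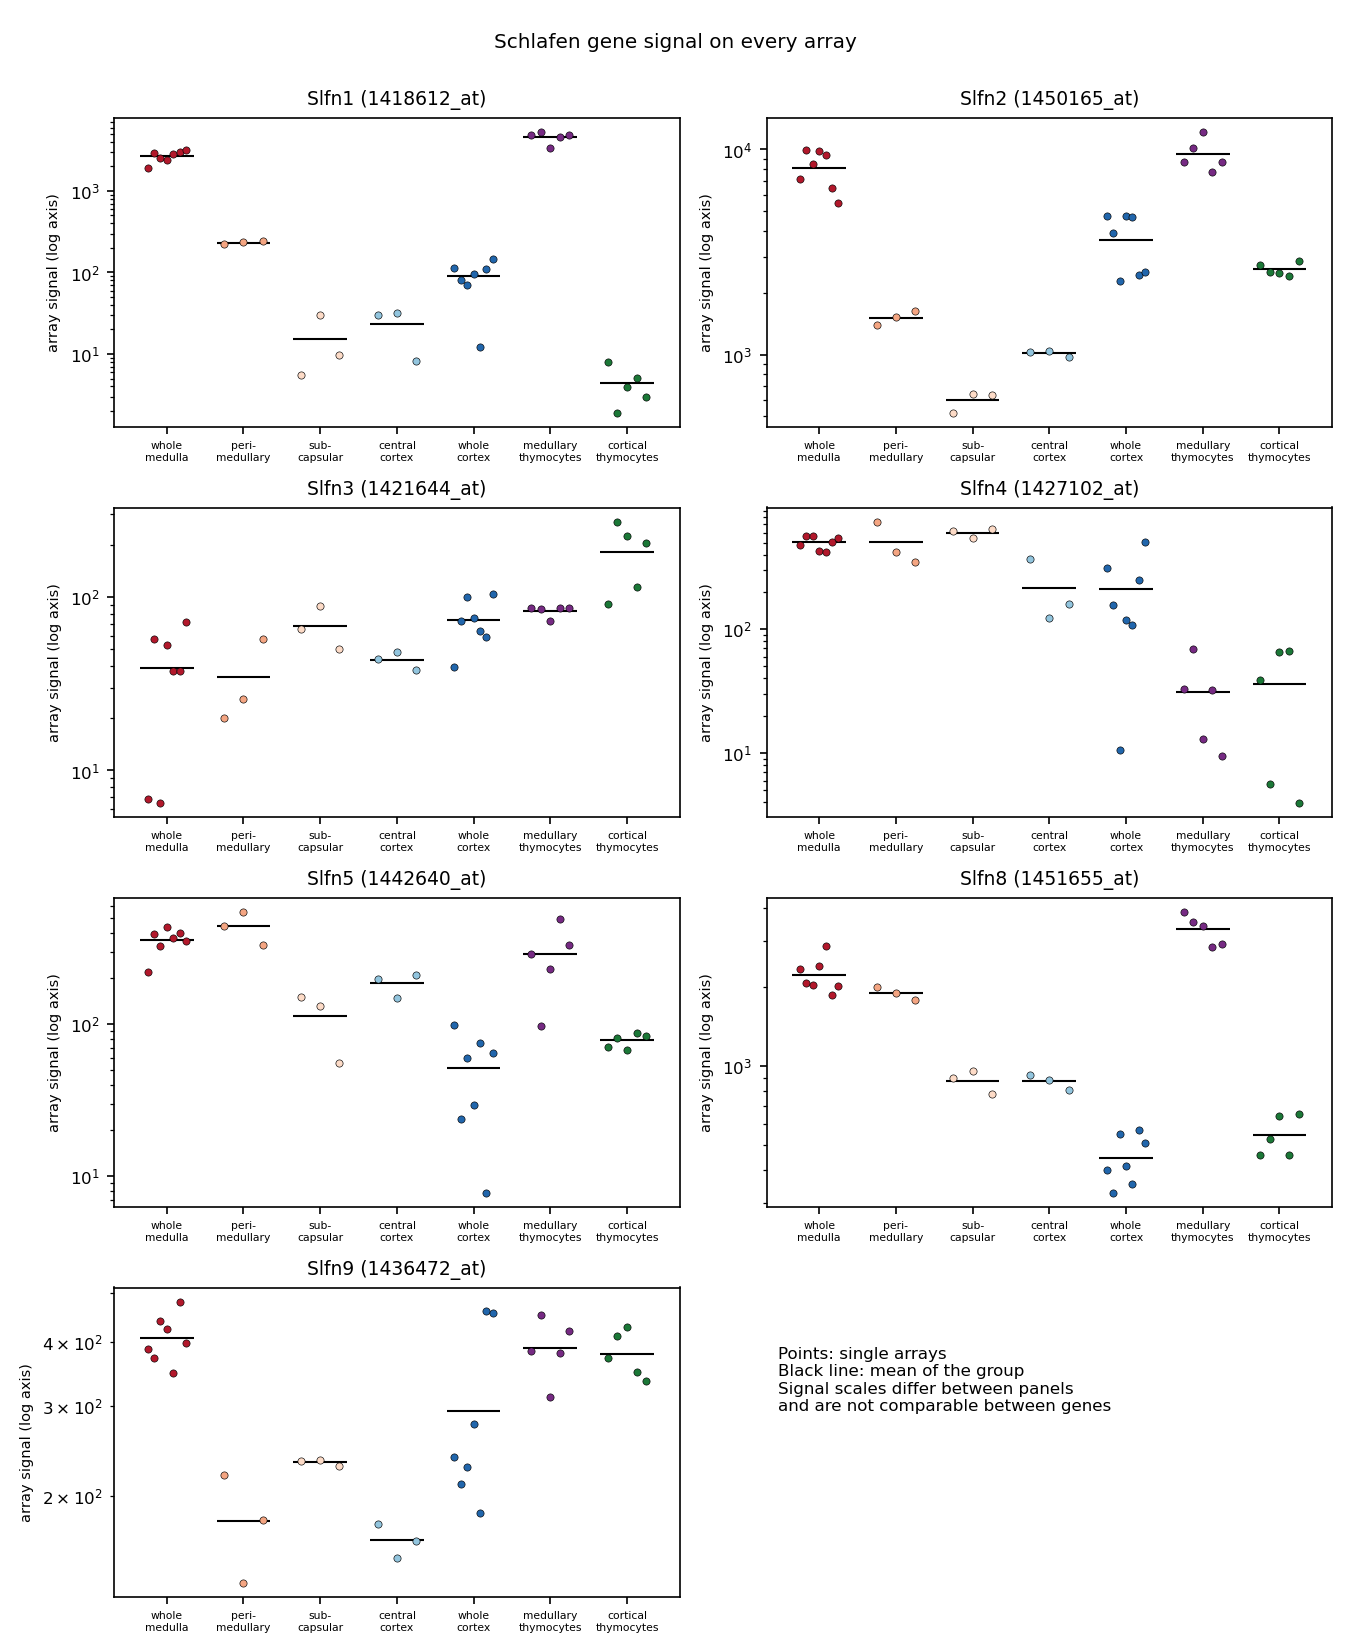
Signal of each Schlafen gene on all 33 arrays, by group, on a log axis. Points are arrays and bars are group means, for the probe set of each gene with the highest mean log2 value. Slfn1 lay between 1899 and 3157 in whole medulla, above every whole cortex array (12.3 to 146), while Slfn9 overlapped between the groups.

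Slfn1, the founding short member, changed most in the family. In whole medulla its signal had a lowest value of 1899, a median of 2853 and a highest value of 3157, against 12.3, 95.6 and 146 in whole cortex. All 7 medulla arrays lay above all 7 cortex arrays. The log2 fold change was 4.65 ± 0.21 (SE, adjusted p = 2.7e-20). Within the cortex, Slfn1 was 222, 235 and 242 on the perimedullary arrays, against 5.57, 30.4 and 9.82 on the subcapsular arrays and 30.2, 31.6 and 8.24 on the central arrays. Every perimedullary array was above every array of the other subregions. The perimedullary level exceeded the subcapsular one by 2.69 ± 0.32 (adjusted p = 9.8e-08) and the central one by 2.42 ± 0.32 (adjusted p = 1.8e-06), both as log2 fold changes. The subcapsular and central arrays overlapped, with a log2 fold change of -0.26 ± 0.32 (adjusted p = 0.76).

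In the sorted cells, Slfn1 was 4907, 5351, 3365, 4588 and 4832 in medullary thymocytes, against 7.95, 1.91, 3.97, 5.04 and 2.93 in cortical thymocytes. The cortical signals were among the weakest on their arrays, at the 2.33 to 13.9 percentile of all probe sets, while the medullary signals were at the 95.2 to 97.2 percentile. The fitted difference was 7.23 ± 0.25 (log2) and is given as a description, since this contrast led to the choice of the family. It was 8.73 when an offset of 6.55 was added instead of 26.2. Whole medulla lay 0.77 below medullary thymocytes on the log2 scale (fold change -0.77 ± 0.23), and whole cortex 1.8 above cortical thymocytes. The value for whole cortex depended on the offset, being 2.95 with 6.55 added, and was 2.32 on arrays without the wide tail. The order of the group means was medullary thymocytes, whole medulla, perimedullary cortex, whole cortex, central cortex, subcapsular cortex and cortical thymocytes. The first 3 of these did not overlap with their neighbours, and the arrays of whole cortex and the groups after it overlapped with the next group.

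The mature-thymocyte markers moved the same way between these groups. All 4 listed markers with a tested probe set were higher in whole medulla than in whole cortex, against 18.5% of all genes. They were led by Ccr7, the receptor that guides cells into the medulla (log2 fold change 4.7 ± 0.14), Itgb7, an integrin chain (3.09 ± 0.14), and S1pr1, the receptor for exit from the thymus (2.65 ± 0.16). The same 4 were higher in perimedullary cortex than in central and in subcapsular cortex, against 1.31% and 2.91% of all genes. The summed signal of the 4 (of 5 listed) ran from 12465 to 17177 in whole medulla, against 1137 to 1949 in whole cortex. It was 4528 to 5301 in perimedullary, 1471 to 2003 in subcapsular and 1705 to 2344 in central cortex, and 20048 to 26194 in medullary thymocytes, against 673 to 845 in cortical thymocytes. Of these markers, Ccr7 in subcapsular cortex and S1pr1 in central cortex were below the array median on every array. Their part in the Slfn1 result was not tested. A second probe set of Slfn1 was above the median of its array on no array and ranged from 1.12 to 99.6 in whole medulla, against 4.41 to 56.9 in whole cortex, with overlapping arrays.

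Slfn2, the quiescence factor, was above the array median on all 33 arrays and rose in the medulla by a smaller fold. In whole medulla it had a lowest value of 5477, a median of 8508 and a highest value of 9956, against 2295, 3897 and 4762 in whole cortex. The arrays of the compartments did not overlap, and the log2 fold change was 1.2 ± 0.15 (adjusted p = 1.3e-08). In the subregions Slfn2 was 1386, 1532 and 1622 in perimedullary cortex, against 521, 641 and 633 in subcapsular cortex and 1032, 1038 and 977 in central cortex. The 3 subregions did not overlap with one another. The perimedullary level rose over the subcapsular one by 1.3 ± 0.23 (log2, adjusted p = 7.9e-05). The difference from central cortex was 0.56 ± 0.23 (adjusted p = 0.31) and did not pass. Subcapsular cortex lay 0.74 ± 0.23 below central cortex on the log2 scale (fold change -0.74, adjusted p = 0.04), which passed the p threshold but not the fold threshold.

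The sorted cells showed Slfn2 at 8688, 10159, 12227, 7735 and 8657 in medullary thymocytes, against 2722, 2530, 2506, 2423 and 2863 in cortical thymocytes. The groups did not overlap, and the fitted difference was 1.84 ± 0.18 (log2, no test). The level in whole cortex was not matched by its subregions: all 9 subregion arrays (521 to 1622) were below all 7 whole cortex arrays (2295 to 4762). The upper range of these arrays differed too. The signal exceeded by 0.1% of probe sets ran from 16919 to 19984 on subregion arrays, against 35990 to 75998 on whole cortex arrays. Its part in the differences of any member between subregions and whole cortex was not tested. The log2 fold change of the subregions over whole cortex was -1.8 ± 0.14 (no test, a comparison added after the data were seen), and -1.33 when only arrays without the wide tail were used. By that comparison 7.04% of all genes were at least 2-fold higher in the subregions and 6.88% at least 2-fold lower, and of the members 3 were higher (Slfn4, Slfn5 and Slfn8) and 1 was lower (Slfn2). The value of Slfn4 was 1.18 over all arrays and 0.1 without the wide-tailed ones, and that of Slfn5 was 1.71 with the probe set of the fit and 0.15 with the mean of its probe sets. That of Slfn9 was -0.5 over all arrays and -1.18 without the wide-tailed ones, which is past 2-fold.

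Angiogenin and its inhibitor give the other side of the transfer RNA pathway in which Slfn2 acts. Ang, the ribonuclease, rose in whole medulla by a log2 fold change of 1.09 ± 0.23 over whole cortex (adjusted p = 8.7e-05), and Rnh1, the inhibitor of such ribonucleases, rose by 1.08 ± 0.08 (adjusted p = 1.3e-13). Of all genes, 18.5% were higher there. Ang averaged 674 ± 232 in whole medulla, but 891 ± 122 in subcapsular, 777 ± 161 in perimedullary and 501 ± 107 in central cortex. Its rise over whole cortex therefore does not hold against every subregion. Rnh1 averaged 2259 ± 269 in whole medulla, above each subregion (655 to 781). In the sorted cells Ang was weak, averaging 36.7 ± 43.6 in medullary thymocytes and 38 ± 15.3 in cortical thymocytes. It was below the array median on every array of cortical thymocytes, but not on every array of medullary thymocytes. Rnh1 averaged 1268 ± 140 in medullary thymocytes, against 569 ± 50.3 in cortical thymocytes.

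Slfn8, a long member, followed the same compartment pattern with little spread. In whole medulla its signal had a lowest value of 1853, a median of 2061 and a highest value of 2862, against 328, 415 and 568 in whole cortex. The arrays did not overlap, and the log2 fold change was 2.27 ± 0.11 (adjusted p = 8.3e-19). The perimedullary arrays gave 1991, 1892 and 1782, against 898, 955 and 780 in subcapsular cortex and 922, 879 and 811 in central cortex. The perimedullary arrays were above all arrays of both other subregions. Slfn8 rose in perimedullary cortex by 1.09 ± 0.17 over each of them (log2, adjusted p = 2.1e-05 against subcapsular cortex and 7.3e-05 against central cortex). Subcapsular and central cortex differed by 0.01 ± 0.17 (adjusted p = 0.99).

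Slfn8 was 3869, 3530, 3406, 2829 and 2920 in medullary thymocytes, against 455, 526, 641, 455 and 652 in cortical thymocytes. The fitted difference was 2.55 ± 0.13 (log2, no test). As with Slfn2, the subregions did not bracket whole cortex, but for Slfn8 they lay above it: the 9 subregion arrays ran from 780 to 1991, against 328 to 568 in whole cortex. The log2 fold change of the subregions over whole cortex was 1.32 ± 0.11 and was 1.04 on arrays without the wide tail (no test).

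Slfn5, the other long member that rose, had probe sets that disagreed in part. Its probe set with the highest mean log2 value, 1442640_at, which stood for the gene in the fit, had a lowest value of 222, a median of 371 and a highest value of 434 in whole medulla, against 7.77, 59.9 and 99.4 in whole cortex. The arrays did not overlap, and the log2 fold change was 2.4 ± 0.25 (adjusted p = 2.9e-10). In the subregions it was 443, 552 and 332 in perimedullary cortex, against 152, 131 and 55.7 in subcapsular cortex and 198, 148 and 212 in central cortex. The perimedullary arrays lay above all others. The rise over subcapsular cortex was 1.8 ± 0.39 (log2, adjusted p = 0.00094), while the difference from central cortex, 1.13 ± 0.39, did not pass (adjusted p = 0.16). With only these groups in the fit, none of whose arrays has the wide tail, it was 1.13 ± 0.2 and passed (adjusted p = 0.015). Slfn5 was 291, 98, 230, 491 and 332 in medullary thymocytes, against 70.6, 81.6, 68, 87.5 and 83.9 in cortical thymocytes, with a fitted difference of 1.45 ± 0.3 (log2, no test), which was 2.05 on arrays without the wide tail.

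The second probe set of Slfn5, 1456288_at, was also higher in whole medulla (165 to 650) than in whole cortex (4.21 to 154), with a log2 fold change of 1.91 ± 0.31 (adjusted p = 2.5e-06). The remaining probe set, 1458458_at, overlapped between the compartments and had a log2 fold change of 0.8 ± 0.29 (adjusted p = 0.019), short of the fold threshold. Between medullary and cortical thymocytes the fitted difference was 2.2 ± 0.36 by 1456288_at and 0.72 ± 0.34 by 1458458_at (log2, no test). The probe sets parted in the subregions. The mean signal of the 9 subregion arrays over that of whole cortex was 4.8 for 1442640_at, 0.531 for 1456288_at and 0.357 for 1458458_at. Against subcapsular cortex, perimedullary cortex was higher by 1.06 ± 0.47 by 1456288_at (adjusted p = 0.15) and by 0.11 ± 0.44 by 1458458_at (adjusted p = 0.93). With the mean of the 3 probe sets the value was 0.99 ± 0.31 (adjusted p = 0.026), under the fold threshold, so the subregion call rests on 1 probe set. The labels and table give no transcript for each probe set.

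**Figure D2:**
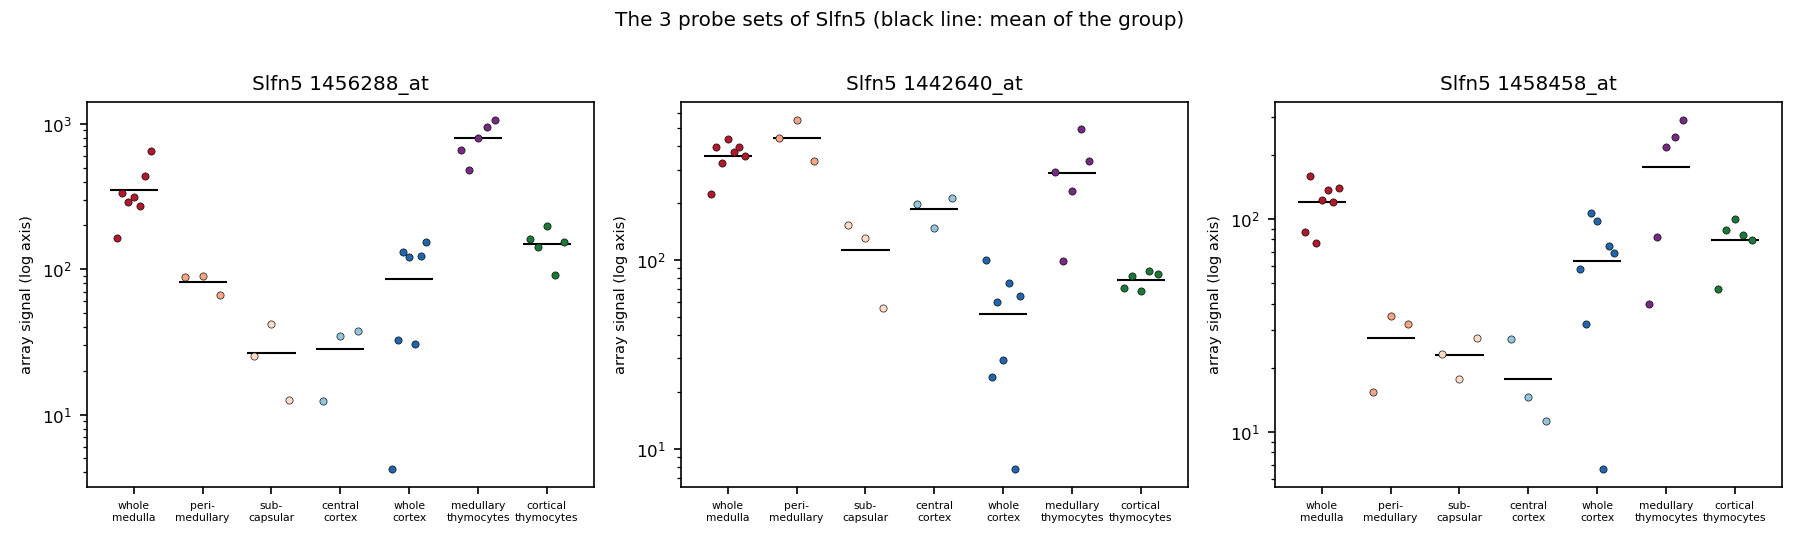
Signal of the 3 Slfn5 probe sets on each array, by group, on a log axis. Points are arrays and bars are group means. In the subregions 1442640_at lies above its whole cortex level (ratio of mean signals 4.8), and 1456288_at and 1458458_at lie below theirs (0.531 and 0.357).

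Slfn9, the remaining long member, met both criteria in none of the 4 tissue comparisons. It averaged 408 ± 44.8 in whole medulla and 294 ± 116 in whole cortex (signal, SD, n = 7 each), and the arrays overlapped. The log2 fold change of 0.51 ± 0.15 passed the p threshold (adjusted p = 0.0038) but not the fold threshold. It was 0.74 within the wide-tailed arrays and -0.06 within the other arrays. Within the cortex Slfn9 was 178 ± 42.8 in perimedullary, 233 ± 3.44 in subcapsular and 163 ± 12.1 in central cortex (n = 3 each), and no difference passed. It averaged 390 ± 52.1 in medullary thymocytes and 380 ± 39.5 in cortical thymocytes (n = 5 each), with arrays that overlapped. A second probe set had a log2 fold change of 0.35 ± 0.23 between whole medulla and whole cortex (adjusted p = 0.21).

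Slfn4 is an intermediate member known from myeloid cells. By the probe set of the fit it had a pattern of its own, with signal in the tissue and little in the sorted thymocytes. In whole medulla it had a lowest value of 418, a median of 506 and a highest value of 566, against 10.5, 158 and 509 in whole cortex. The medulla arrays were close together, and the cortex arrays spread widely and overlapped with them. The log2 fold change was 1.52 ± 0.36 (adjusted p = 0.00044). It was 1.93 within the wide-tailed arrays. Within the other arrays, replicates 6 and 7 of each compartment, it was 0.51 (adjusted p = 0.15), and the call was lost. Without whole cortex replicate 3, the array at 10.5, it was 1.14.

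Slfn4 was 738, 421 and 350 in perimedullary cortex, 620, 541 and 637 in subcapsular cortex and 367, 124 and 159 in central cortex. The subcapsular arrays lay above the central ones, and the perimedullary arrays overlapped with both. The log2 fold change of subcapsular over central cortex was 1.49 ± 0.55 (adjusted p = 0.1), and that of perimedullary over central cortex was 1.19 ± 0.55 (adjusted p = 0.43), and neither passed. On all 10 arrays of sorted cells Slfn4 was below the median of its array. It was 32.7, 68.6, 12.9, 32.3 and 9.52 in medullary thymocytes, against 38.8, 5.67, 65.5, 67 and 3.98 in cortical thymocytes. Whole medulla exceeded medullary thymocytes by 3.28 ± 0.4 (log2, no test).

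Markers of macrophages, neutrophils and mesenchyme were measured beside Slfn4. The summed signal of the macrophage and monocyte markers (9 of 9 listed are on the array, 8 of them tested) ran from 24448 to 30666 in whole medulla, against 6067 to 8246 in whole cortex. It ran from 12995 to 14586 in perimedullary cortex, 4916 to 6050 in subcapsular cortex and 5713 to 6936 in central cortex. In the sorted cells it was 674 to 778 in medullary thymocytes and 425 to 632 in cortical thymocytes. Lyz2, Itgam and Cybb in medullary thymocytes, and Cd68, Ccr2, Cybb and Cd14 in cortical thymocytes, were below the array median on every array. Of the dissected tissues, the sum was highest in the medulla and had its lowest median in subcapsular cortex (5271). The sum weighs bright markers most, and single markers differed in order. Lyz2 averaged 16845 ± 2059 in whole medulla, 2794 ± 512 in whole cortex and 940 ± 111 in subcapsular cortex. Csf1r averaged 5674 ± 391, 2174 ± 396 and 2981 ± 374 in the same groups. The 6 neutrophil markers summed to 3736 to 6431 in whole medulla, against 2547 to 23258 in whole cortex, and to 6561 to 12784 in subcapsular cortex, against 743 to 9416 in central cortex. They summed to 1757 to 4970 in perimedullary cortex, to 167 to 351 in medullary thymocytes and to 448 to 1342 in cortical thymocytes. Of these markers 5 of the 8 rose in whole medulla over whole cortex in the macrophage list, and 4 of the 6 fell in the neutrophil list. Of all genes, 18.5% were higher there and 5.38% lower. The 3 mesenchyme markers summed to 2241 to 4275 in whole medulla, against 1338 to 3032 in whole cortex, and to 4578 to 5535 in subcapsular cortex, against 1598 to 2256 in central cortex. They summed to 2573 to 2904 in perimedullary cortex, to 50.5 to 77.8 in medullary thymocytes and to 155 to 298 in cortical thymocytes. All 3 (Pdgfrb, Col1a1 and Dcn) were below the array median on every array of medullary thymocytes, and Col1a1 and Dcn on every array of cortical thymocytes. Of the 3, 2 rose in whole medulla over whole cortex (Pdgfrb by 1.74 ± 0.19 and Col1a1 by 1.13 ± 0.31). In subcapsular over central cortex 2 rose (Dcn by 1.69 ± 0.33 and Col1a1 by 1.58 ± 0.48), against 0.847% of all genes. Of other lists, 5 of 6 dendritic cell, 3 of 4 B cell and 4 of 5 medullary epithelium markers rose in whole medulla over whole cortex. So did 3 of 4 NK and cytotoxic and 2 of 4 endothelium markers, while 3 of 4 cortical epithelium markers fell. The part of all these marker lists in the Slfn4 result was not tested.

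Slfn3, the other intermediate member, had its highest signals in cortical thymocytes. It passed the filter on low values because its signal was above the median of its array on 8 arrays, 5 of them the arrays of cortical thymocytes. It was 86.8, 85, 73, 87.1 and 86.1 in medullary thymocytes, against 90.7, 273, 225, 115 and 206 in cortical thymocytes. All medullary arrays lay below all cortical ones, with a fitted difference of -0.84 ± 0.29 (log2, no test). In tissue it averaged 38.8 ± 25 in whole medulla and 73.6 ± 22.7 in whole cortex (n = 7 each). The arrays overlapped, and the log2 fold change of -0.69 ± 0.24 (adjusted p = 0.013) missed the fold threshold. With the offset at 6.55 it was -1.05 (adjusted p = 0.0097) and met it. The probe set shared by Slfn3 and Slfn4 had a log2 fold change of 0.62 ± 0.23 between whole medulla and whole cortex (adjusted p = 0.02), between the values of the genes it stands for. Its mean was highest in cortical thymocytes (113 ± 19.7) and lowest in perimedullary cortex (35.1 ± 9). The pattern of Slfn4, signal in the tissue with little in the sorted thymocytes, was not seen with this shared probe set.

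Between the subregions, 2 members rose in perimedullary over central cortex (Slfn1 and Slfn8), against 1.31% of all genes higher and 0.0371% lower. Against subcapsular cortex, 4 rose in perimedullary cortex (Slfn1, Slfn2, Slfn5 and Slfn8), against 2.91% of all genes higher and 1.66% lower. The median over the members was 1.09 in both comparisons, and over all genes -0.01 against central cortex and 0 against subcapsular cortex. The perimedullary arrays serve in both comparisons, which are therefore not independent. Between subcapsular and central cortex limma called 0 members, against 0.847% of all genes higher and 0.446% lower, and 2 members (Slfn2 and Slfn4) had an unadjusted p below 0.05.

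**Figure D3:**
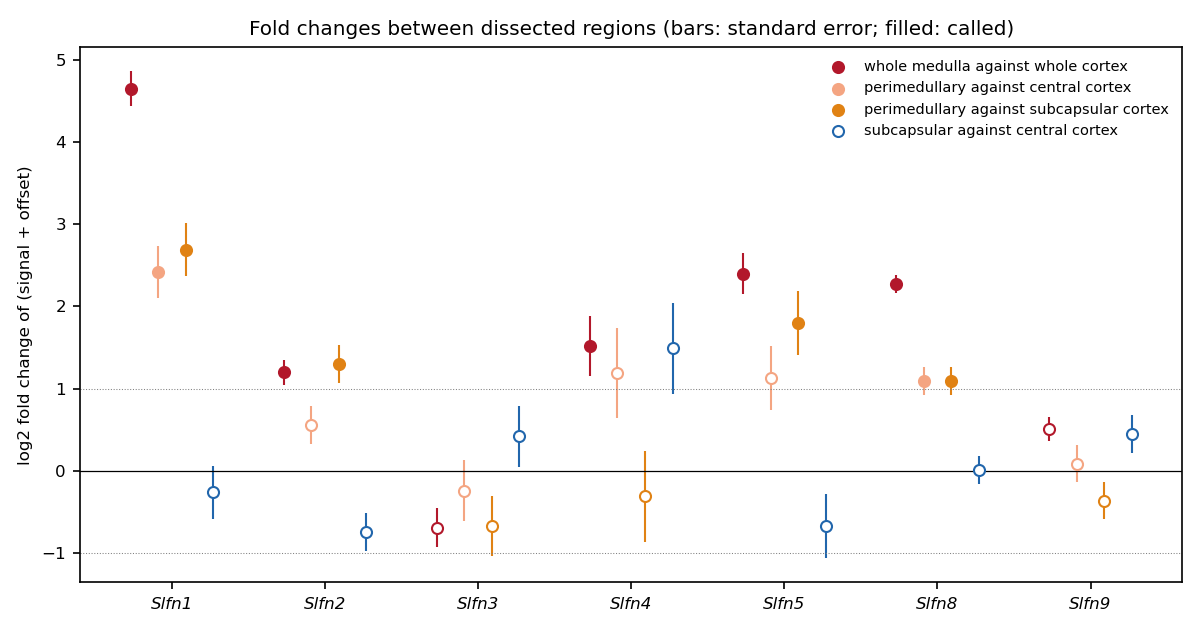
Fitted log2 fold changes of the 7 Schlafen genes in the 4 tissue comparisons, with bars of 1 standard error. Filled points passed both criteria and open points did not. Slfn1 (4.65), Slfn5 (2.4) and Slfn8 (2.27) had the highest values of whole medulla over whole cortex.

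For the comparisons with sorted cells, only sizes are given. At a 2-fold threshold with no test, 4 members were higher in medullary than in cortical thymocytes (7.7% of all genes higher, 6.29% lower). In whole medulla 1 member, Slfn4, was at least 2-fold above medullary thymocytes (19.3% of all genes higher, 1.2% lower). In whole cortex Slfn1 and Slfn4 were at least 2-fold above cortical thymocytes and Slfn3 at least 2-fold below (9.58% higher, 1.52% lower). Tissue RNA was prepared with one kit and RNA of sorted cells with another, so in tissue over sorted cells a kit effect cannot be told apart from a sample effect. Differences between whole cortex and cortical thymocytes moved when the wide-tailed arrays were left out. That of Slfn4 was 1.71 over all arrays and 2.79 without them, and that of Slfn1 was 1.8 over all arrays and 2.32 without them. That of Slfn2 was 0.4 over all arrays and -0.07 without them, that of Slfn8 was -0.29 over all arrays and 0 without them, and that of Slfn9 was -0.41 over all arrays and 0.26 without them.

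The genes whose log2 values tracked each member most closely over the 33 arrays were found by Pearson correlation among all genes tested outside the family. Slfn1 was most like Klf2, the transcription factor of quiescence and thymic exit (r = 0.986), Ifi213, an interferon-inducible gene (0.979), and S1pr1 (0.977). Klf2 averaged 4106 ± 804 in whole medulla, against 350 ± 83.2 in whole cortex, and 7418 ± 1518 in medullary thymocytes, against 170 ± 23 in cortical thymocytes (signal, SD). Slfn2 was most like Bin1 (0.962), Cd2, an adhesion receptor of T cells (0.956), and Gimap6, of the immunity-associated GTPases (0.955). Slfn8 was most like Cotl1, an actin-binding protein (0.969), Ddx58, which encodes the RNA sensor RIG-I (0.965), and Tgfbr2, a receptor of transforming growth factor beta (0.962). Slfn5 was most like Pml, the organiser of nuclear bodies (0.894), Zbtb4 (0.89) and Trio (0.877). These correlations describe 7 groups more than 33 independent points, and the arrays share the group differences and the scaling.

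Slfn4 was most like Plcg2, a phospholipase of B cells and myeloid cells (r = 0.907), S100a16 (0.905) and Ddr1, a collagen receptor (0.898). Plcg2 averaged 947 ± 168 in whole medulla, against 418 ± 88.4 in whole cortex, and 151 ± 62.5 in medullary thymocytes, against 213 ± 31.1 in cortical thymocytes. Slfn9 was most like Stub1, a ubiquitin ligase (0.882), Tgfb1, the growth factor itself (0.873), and Ppif, a mitochondrial cyclophilin (0.871). Slfn3 was most like Fbxo8 (0.822), Art4 (0.819) and Ino80c (0.795), the lowest values of the family. Between members, r was 0.86 for Slfn1 and Slfn8, 0.805 for Slfn5 and Slfn8, 0.794 for Slfn1 and Slfn2 and -0.672 for Slfn3 and Slfn4 over the same arrays.

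**Figure D4:**
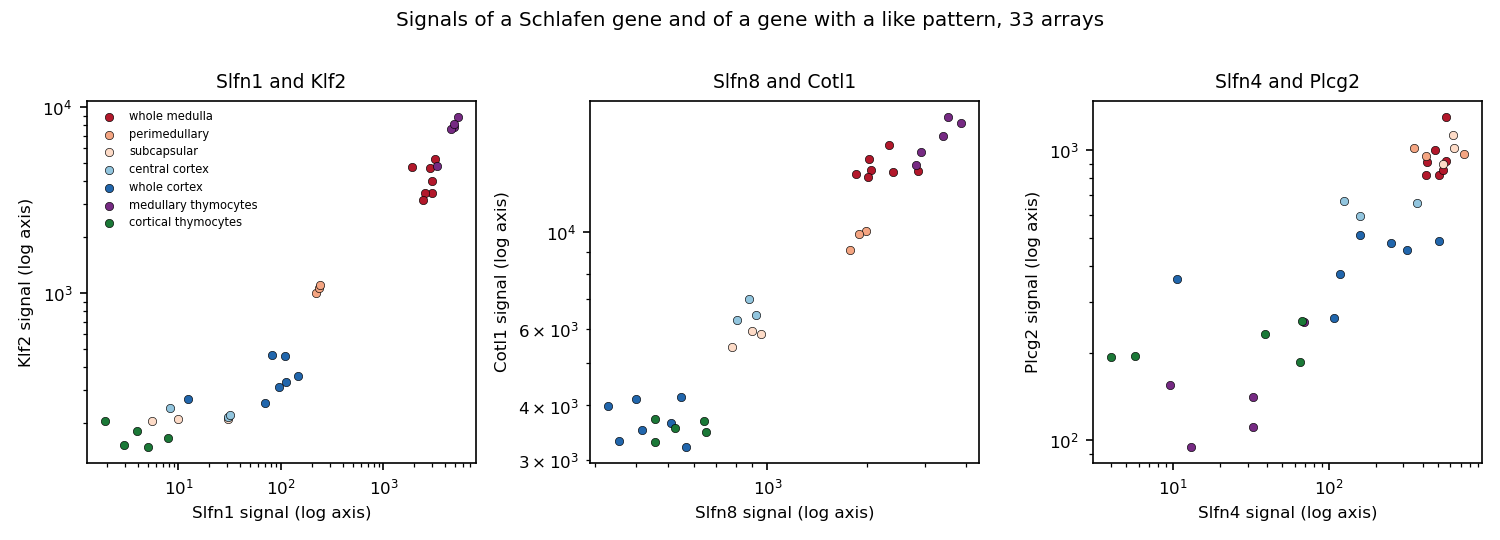
Signal on each of the 33 arrays, on log axes, of Slfn1 and Klf2, Slfn8 and Cotl1, and Slfn4 and Plcg2, coloured by group. Points are arrays. The Pearson correlations of log2 values were 0.986, 0.969 and 0.907.

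Interferon-induced genes were measured as a list because several Schlafen genes belong to that response. Of the 32 listed, 28 had a tested probe set. Of these, 25 rose in whole medulla over whole cortex and none fell, against 18.5% of all genes higher and 5.38% lower. The median log2 fold change was 2.51 over the list and 0.11 over all genes. Mx1, an antiviral GTPase, rose by 3.88 ± 0.22, Dhx58, a regulator of RNA sensing, by 3.55 ± 0.27 and Oas1a, a sensor of double-stranded RNA, by 3.45 ± 0.22. In perimedullary over central cortex 14 of the 28 rose (median 1.09), against 1.31% of all genes, with Oas1a at 2.25 ± 0.34. Over subcapsular cortex 9 rose (median 0.73), against 2.91% of all genes. The members with the element in their printed promoter, Slfn5, Slfn8 and Slfn9, had log2 fold changes of 2.4, 2.27 and 0.51 in whole medulla over whole cortex, and those without it ranged from -0.69 to 4.65.

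Quiescence and division genes were taken as further lists. Of 12 tested quiescence factors, against 18.5% of all genes higher and 5.38% lower, 3 rose in whole medulla over whole cortex (Klf2 by 3.46 ± 0.13, Klf4 by 2.11 ± 0.17 and Foxo1 by 1.64 ± 0.14), and 2 fell. The median was 0.2 over the list and 0.11 over all genes. Those that fell were Btg2, an antiproliferative factor, at -1.38 ± 0.11, and Cdkn2d, an inhibitor of cyclin-dependent kinases, at -1.08 ± 0.11. In sorted cells Klf4 was weak, averaging 66.7 ± 26.1 in medullary and 45 ± 15.5 in cortical thymocytes, against 836 ± 157 in whole medulla. Foxo1 averaged 4170 ± 954 in medullary and 902 ± 135 in cortical thymocytes. Of 16 tested division genes, 13 fell and none rose (median -1.74), among them the cyclin Ccnb2 at -2.71 ± 0.12, Birc5, a part of the chromosomal passenger complex, at -2.4 ± 0.13, and the kinase Aurkb at -2.16 ± 0.18. In perimedullary over central cortex none of the 16 passed, and over subcapsular cortex 6 fell, against 1.66% of all genes lower.

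The neighbours of the cluster were measured beside its members. In RefSeq order the cluster runs Slfn5, Slfn9, Slfn8, Slfn10-ps, Slfn2, Slfn1, Slfn4 and Slfn3, with Rad51d, Fndc8 and Nle1 before it and AI662270, Ap2b1 and 1700020L24Rik after it among the genes tested. None of these 6 neighbours met both criteria between whole medulla and whole cortex. AI662270 came nearest, at -0.77 ± 0.09 (log2, adjusted p = 2.3e-09), followed in p by Nle1 at 0.45 (adjusted p = 0.062). Within the cluster members that rose and members that did not were interspersed: Slfn9 (0.51) lies between Slfn5 (2.4) and Slfn8 (2.27), and Slfn3 (-0.69) lies beyond Slfn4 (1.52). Whether the probes of one member also bind transcripts of another was not tested.

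**Figure D5:**
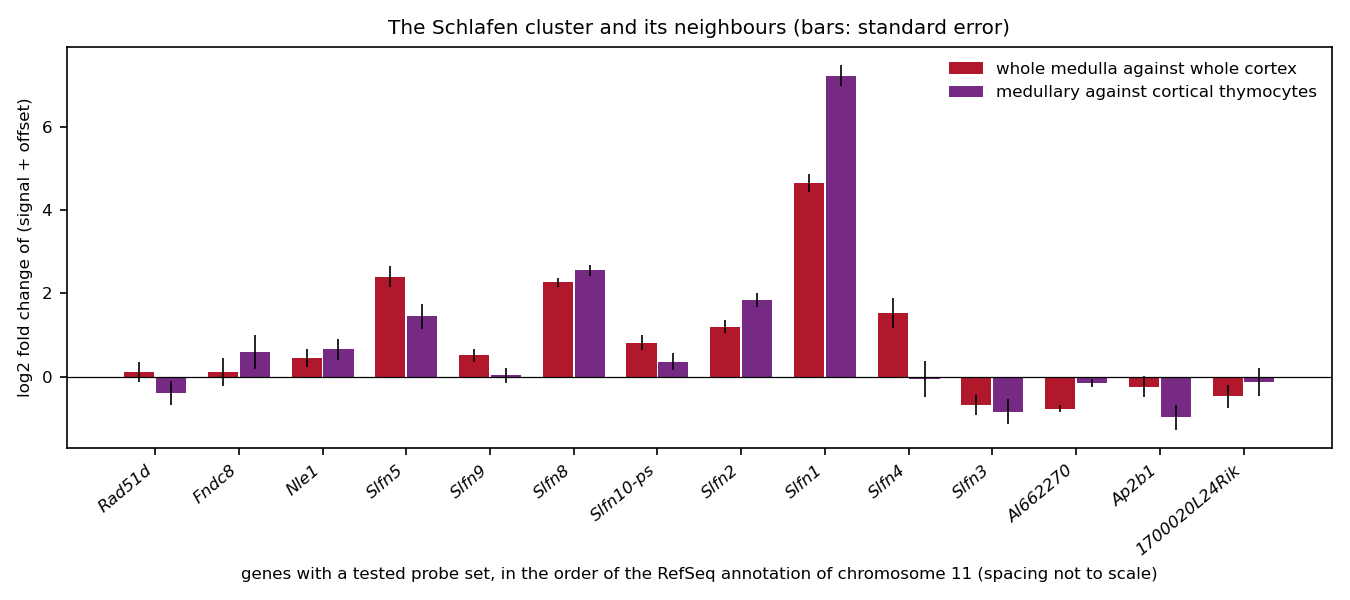
Log2 fold changes of whole medulla over whole cortex and of medullary over cortical thymocytes (no test) for the Schlafen genes and their tested neighbours, in their order on chromosome 11, as columns with lines of 1 standard error. The distance between genes is not to scale. In the tissue, the outer neighbours range from -0.77 to 0.45, and the members from -0.69 (Slfn3) to 4.65 (Slfn1).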

How the data were processed

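RNA of 33 mouse thymus samples was measured on Affymetrix arrays, and the deposited values are intensity on a linear scale, 1 per probe set. Per the submitters' processing notes, the authors made these intensity values with Affymetrix Expression Console 1.0 and MAS5. The arrays do not share a common median signal (71.9 to 163). Whether MAS5 had scaled them to a common mean was not checked. Labelling was primed with oligo-dT, per the labels' protocols, and RNA was isolated with RNAqueous Micro kits from tissue and RNeasy Mini kits from sorted cells.

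A probe set entered the fit when its signal exceeded the array's median on 3 or more arrays and it named 1 symbol. Per gene, the probe set of highest mean log2 value was used (13463 genes). Values became log2 after adding 26.2, taken from the 25th percentile of each array (the median of these). The model of limma 3.58.1 under R 4.3.3 held all arrays and 7 group means, with 26 residual degrees of freedom and a spread trended on the mean. Tests were 2-sided, with Benjamini-Hochberg adjustment over all genes. The fit was run on simulated data with independent noise and changes placed in whole medulla. That check did not cover shared animals, wide-tailed arrays or a spread that differs between groups. Precision is limited by how many arrays a group has.

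The members and gene lists were chosen with earlier results of these data known. Genes were named by rule: all members, the 3 genes most correlated with each, up to 3 called genes of a list by fold change of whole medulla over whole cortex, and the 3 nearest tested neighbours on each side of the cluster. Outside this rule, Btg2 and Cdkn2d (the quiescence factors that fell), Dcn, Csf1r and the markers below the array median were named after their values were seen. The markers Aire, Psmb11 and Rag1 were named as checks of the labels. Promoter sequences are from RefSeq (GRCm38.p6), matched by symbol for all 7 members. The alternatives were the offset, the filter, the probe set rule, quantile normalization, array weights, the samples in the fit, a replicate block, arrays with a wide tail and leaving out each array in turn.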

Additional observations from a re-analysis of the deposited data

Results flagged for a closer look

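Of 28 groups of 4 to 10 arrays examined over the 7 members, 2 held an array far from the others of its group on the log2 scale, and chance alone gives about 1 in 20. Slfn1 was 12.3 in whole cortex replicate 5, against 69.6 to 146 on the other 6 whole cortex arrays. Without that array the log2 fold change of Slfn1 in whole medulla over whole cortex was 4.41. Slfn3 was 73 in medullary thymocytes replicate 3, against 85 to 87.1 on the other 4 arrays of that group.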

How the results depend on the processing

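Of 538 alternative values of single members in the tested comparisons, 519 kept their direction and their side of the thresholds, 10 passed that had not, 2 no longer passed and 7 changed sign. Some settings use the same arrays or the same member probe sets, so these values are not separate checks. Those that changed sign passed under neither setting: Slfn9 in whole medulla over whole cortex (0.51, and -0.06 within the other arrays), Slfn9 in perimedullary over central cortex (0.09, and -0.02 after quantile normalization and -0.06 to 0.25 with 1 array left out) and Slfn8 in subcapsular over central cortex (0.01, and -0.01 with array weights and -0.05 to 0.09 with 1 array left out). The 2 that no longer passed were Slfn4 (whole medulla over whole cortex, within the other arrays) and Slfn5 (perimedullary over subcapsular cortex, with the mean of its probe sets). With array weights 4 members passed in perimedullary over central cortex in place of 2, the added ones being Slfn4 and Slfn5. Slfn5 also passed there with only the compared groups in the fit (adjusted p = 0.015). No subregion array has a wide tail, so the fit within the other arrays is the same one. In subcapsular over central cortex 1 member, Slfn4, passed in place of 0 with only the compared groups in the fit, again the same fit as within the other arrays. It also passed with array weights and with a replicate block (adjusted p = 0.0073). The block also gave Slfn4 an adjusted p of 0.021 in perimedullary over central cortex. Samples with the same replicate number correlated at -0.08 to 0.26 in their deviations from the group means. Such values cannot show whether these samples shared an animal. Leaving out each array in turn left 5 members in whole medulla over whole cortex, 2 and 4 in perimedullary over central and subcapsular cortex, and 0 in subcapsular over central cortex. Quantile normalization moved the median of all genes in whole medulla over whole cortex to -0.03, against 0.11. Signals near the offset, such as Slfn1 in cortical thymocytes and Slfn3 in tissue, bound a level rather than measure it.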

Other observations

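Slfn10-ps, a further Schlafen annotation that RefSeq places inside the cluster, not among the 7 members, averaged 203 ± 63.5 in whole medulla, against 104 ± 32.3 in whole cortex (signal, SD, n = 7 each). Its log2 fold change was 0.81 (adjusted p = 0.00019), under the fold threshold. It averaged 324 ± 46.1 in medullary thymocytes and 246 ± 33.3 in cortical thymocytes (n = 5 each). In the subregions it was 63.7 ± 18.2 in perimedullary, 42.6 ± 12.2 in subcapsular and 58.4 ± 16.9 in central cortex (n = 3 each). Each was below its whole cortex mean, as the subregion means of Slfn2, Slfn3 and Slfn9 were below theirs.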
